A study of Mus musculus with 15 samples.

Results

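The transcripts of 7 genes that serve peptide presentation by MHC class II were followed in the distal colon of mice with and without Irf1. These genes were chosen by symbol, as the 3 class II chain genes H2-Aa, H2-Ab1 and H2-Eb1, the peptide-loading genes H2-DMa and H2-DMb1, the invariant chain gene Cd74 and the regulator Ciita, and 7 of 7 were found among the 12897 genes of the 3 deposited count tables. All 7 were present in each table. RNA-seq covered 15 colons, 3 biological replicates in each of 5 groups, and the labels do not state the sex of the mice. The groups were untreated C57BL/6 (B6) wildtype mice in 2 separate sets (set 1 and set 2), B6 mice at day 26 (D26) after AOM/DSS, untreated Irf1-/- mice, and Irf1-/- mice at D26 after AOM/DSS. The mutation was constitutive and on the B6 background, so that no cell of these mice was spared. Treated mice had received azoxymethane (AOM, a carcinogen that alkylates DNA and acts in the colon) once on day 1, at 7 mg/kg, and 2% dextran sulfate sodium (DSS, which injures the colonic epithelium) in drinking water from day 8 to day 11. The methods give an age of 8 to 10 weeks for mice entering the AOM/DSS model.

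MHC class II molecules are pairs of an alpha and a beta chain that hold peptides from engulfed material and show them to CD4+ T cells. The chains are assembled on the invariant chain (Cd74), which is cut away by lysosomal cathepsins, and the H2-DM heterodimer (H2-DMa with H2-DMb1 or H2-DMb2) then exchanges its last fragment for a peptide. Dendritic cells, macrophages and B cells carry class II at all times, whereas the intestinal epithelium acquires it under interferon-gamma. Ciita is the coactivator without which these genes are hardly transcribed. It does not bind DNA itself and is recruited by RFX, CREB and NF-Y proteins that sit on the X1, X2 and Y boxes shared by class II promoters, and its interferon-inducible promoter is a textbook target of Usf1 and Irf1. The B6 haplotype makes no functional E alpha chain, so the H2-Eb1 transcript has no partner for its product in these mice.

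Promoter elements are shown because class II promoters are known for them, and 3 of the 7 members carried the whole series in the windows read here. RefSeq promoter windows, from 250 bases before to 50 bases after a transcription start (build GRCm38.p6), matched 4 of the 7 members: H2-Aa, H2-Eb1, H2-DMa and H2-DMb1. The 150 bases before the start are printed below from the 5′ to the 3′ end on the strand of the gene, for H2-Aa (chr17:34287824-34287973, minus strand), H2-Eb1 (chr17:34305717-34305866, plus strand), H2-DMb1 (chr17:34153041-34153190, plus strand) and its near-identical neighbour H2-DMb2 (chr17:34145099-34145248, plus strand). Capitals mark an X1 match, an X2 match and a Y match, in this order.
H2-Aa: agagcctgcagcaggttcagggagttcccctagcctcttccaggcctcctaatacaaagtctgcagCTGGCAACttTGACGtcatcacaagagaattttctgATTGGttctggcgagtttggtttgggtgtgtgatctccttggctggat
H2-Eb1: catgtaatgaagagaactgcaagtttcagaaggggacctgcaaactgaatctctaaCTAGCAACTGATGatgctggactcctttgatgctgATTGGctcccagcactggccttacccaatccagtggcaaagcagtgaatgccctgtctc
H2-DMb1: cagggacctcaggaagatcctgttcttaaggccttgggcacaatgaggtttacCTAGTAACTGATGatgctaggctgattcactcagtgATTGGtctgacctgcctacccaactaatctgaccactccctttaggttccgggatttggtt
H2-DMb2: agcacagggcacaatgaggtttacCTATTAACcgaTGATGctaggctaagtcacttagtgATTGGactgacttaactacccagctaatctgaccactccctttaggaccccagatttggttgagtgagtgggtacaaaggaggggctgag

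The search was for CTNNNAAC (X1), then TGANG (X2) within 10 bases, then ATTGG (Y) 20 to 35 bases after X1, on both strands, and these letters were chosen after the sequences had been read. The 4 windows above and that of H2-Ob each held 1 such series on the strand of the gene, with 28 bases between X1 and Y in H2-Aa, H2-DMb1 and H2-DMb2, 27 in H2-Eb1 and 25 in H2-Ob. Of all 32851 promoter windows, 24 (0.0731%) held the series on either strand. Most of these 24 belonged to genes outside class II, such as Aptx, Kat7 and Pim2. Taken singly the letters were common, with CTNNNAAC in 41.1% and ATTGG in 37.4% of windows. In H2-Aa the X2 letters are part of the full palindrome TGACGTCA, the CREB consensus, which was found in 1.79% of windows. H2-DMa has 2 starts in this set and neither window held the series. The windows of 2 further class II genes, H2-Oa and H2-Eb2, did not hold it either. A match is a description of letters and does not show that a factor binds.

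**Figure D1:**
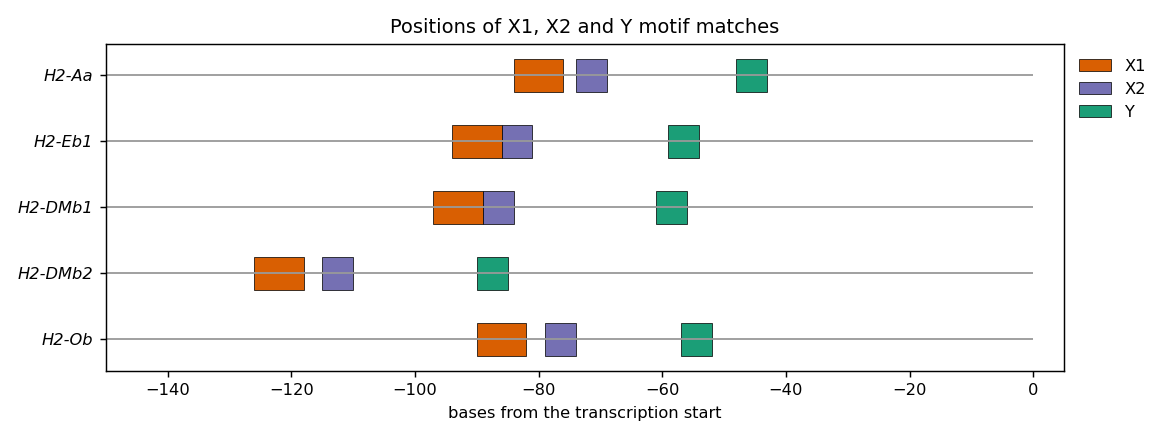
Distance in bases from the transcription start (x axis) of the X1, X2 and Y letter matches in the promoter windows of H2-Aa, H2-Eb1, H2-DMb1, H2-DMb2 and H2-Ob (rows). Coloured boxes are drawn to scale, and X1 and Y are 25 to 28 bases apart in the 5 windows.

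The summed gene counts of a library lay between 22266607 and 22869853. The RNA came from whole distal colon, and fewer cells of a type cannot be told apart from less RNA per cell. All 8 colon epithelium markers were present, as the labelled tissue requires, and Epcam, an epithelial adhesion molecule, lay between 1226 and 1501 CPM over the 15 libraries (CPM is the count of a gene scaled to library size with TMM factors). Irf1 reads were still counted on the targeted gene, at 79.4 to 123 CPM in the 6 Irf1-/- libraries and 128 to 227 CPM in the 9 B6 libraries. Which exons these reads came from cannot be seen in gene totals. Some libraries stood apart from others of their group. Xist, transcribed from the inactive X chromosome of females, had 573 and 134 reads in replicates 1 and 2 of treated B6 mice and 263 in replicate 1 of treated Irf1-/- mice, against 7288 to 83932 in the other 12 libraries. The slope of log2 counts on GC content was 0.14 to 0.29 per 10% GC in the 3 treated B6 libraries and -0.12 to 0.03 elsewhere.

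Cd74 was the most abundant member, with a mean of 285 CPM over the 15 libraries, followed by H2-Aa (147 CPM), H2-Ab1 (127 CPM) and H2-Eb1 (119 CPM). Ciita (25.4 CPM), H2-DMb1 (19.8 CPM) and H2-DMa (11.5 CPM) were far lower. Per kilobase of all exons Cd74 was again first (170 CPM per kb), then H2-Eb1 (61.0 CPM per kb), H2-Ab1 (49.5 CPM per kb) and H2-Aa (38.8 CPM per kb), and Ciita was last (2.66 CPM per kb). The order of the chain genes depended on the length used: with the longest transcript H2-Ab1 (105 CPM per kb) came before H2-Eb1 (71.1 CPM per kb). The invariant chain transcript was thus above each of the transcripts that it chaperones on both length scales.

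Replicate 2 of treated B6 mice had the highest level of all 7 members. Replicate 3 of untreated B6 set 2 had the lowest level of 6 members, and replicate 3 of set 1 that of H2-DMb1. The ratio of the highest to the lowest library was between 4.03 (Ciita) and 5.58 (H2-Aa). The order of the group means was the same for 6 of 7 members, namely treated B6, treated Irf1-/-, untreated B6 set 1, untreated Irf1-/- and untreated B6 set 2. H2-DMb1 had the last 2 exchanged, at 15.2 ± 5.10 CPM in set 2 and 15.1 ± 2.59 CPM in untreated Irf1-/- mice (SD, n = 3). Neighbouring groups in this order overlapped for every member except H2-DMa, whose 3 treated B6 libraries lay above all treated Irf1-/- libraries. The nearest of these were almost level, at 12.6 and 12.5 CPM.

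**Figure D2:**
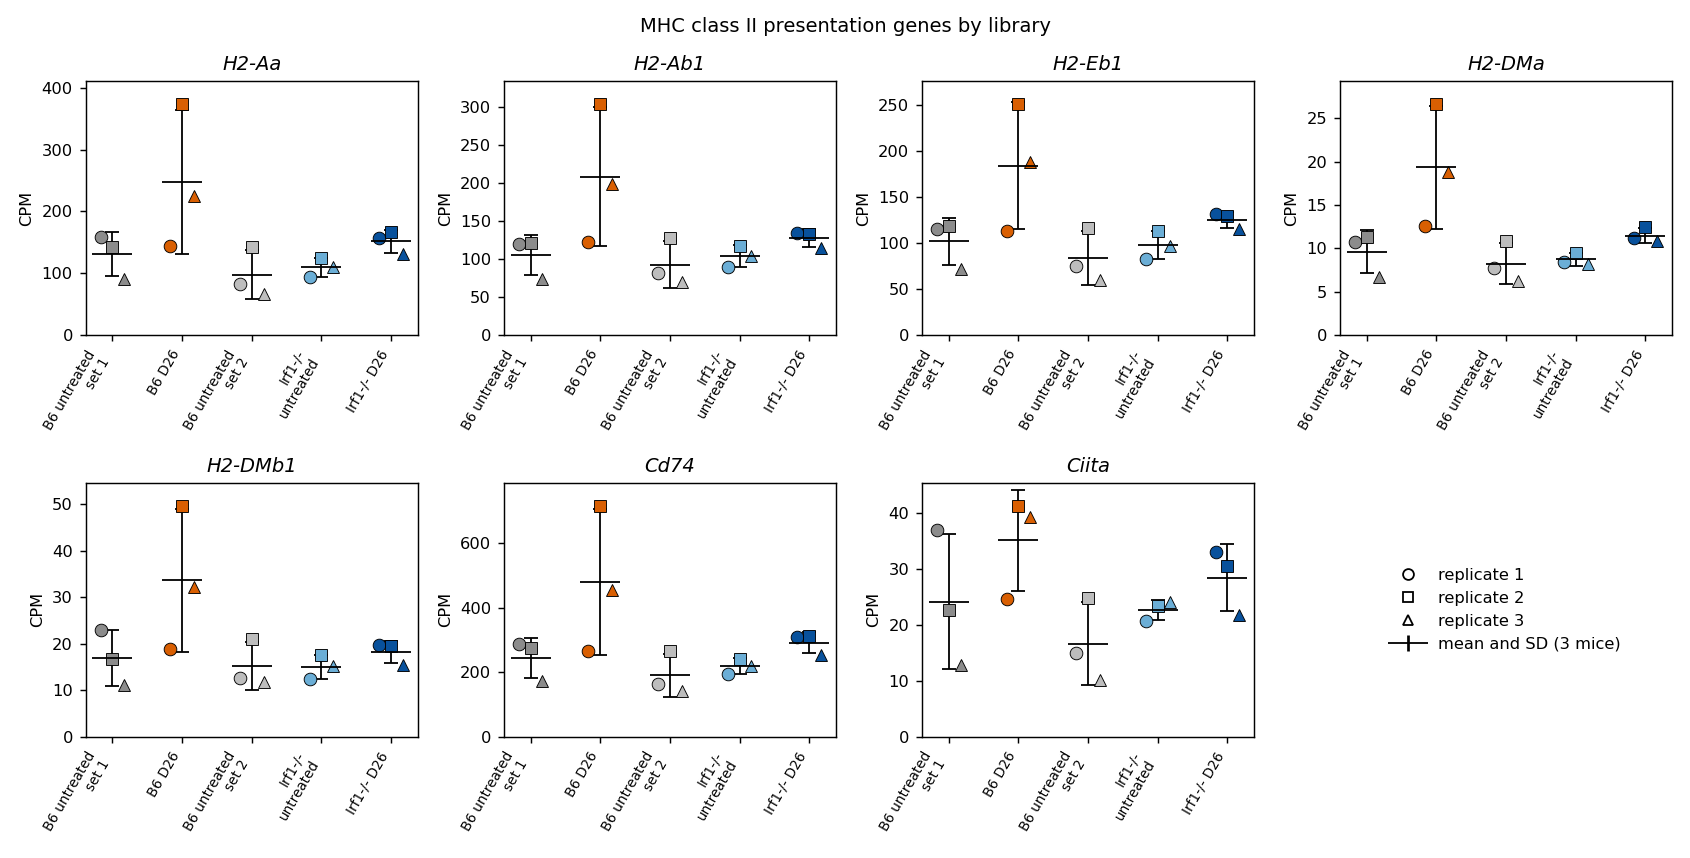
Levels of the 7 members in CPM (linear y axes from 0) in each of the 15 libraries, grouped on the x axis by genotype and treatment. Symbols are replicates and bars the mean and SD of 3 mice. Treated B6 replicates 2 and 3 stand above the other libraries in H2-Ab1, with 303 and 199 CPM, and replicate 1, with 122 CPM, lies among them.

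The first question was whether AOM/DSS changed class II transcripts in B6 colons, with set 1 as the untreated mice. The means of all 7 members were higher at D26, by 1.82-fold to 2.03-fold for 6 of them and 1.46-fold for Ciita, but treated mice differed widely and no member passed the threshold of a 1.5-fold change with an adjusted p under 0.01. Cd74 was at 287, 276 and 174 CPM in untreated and 266, 716 and 456 CPM in treated B6 mice. Replicates 2 and 3 were thus above all untreated mice and replicate 1 among them, so the groups overlapped. The log2 fold change (FC) of Cd74 was 0.97 (95% confidence interval 0.25 to 1.70, adjusted p = 0.0867, quasi-likelihood test of edgeR, adjusted by Benjamini-Hochberg over all genes).

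The chain genes had the same shape. H2-Aa, the A alpha chain, was at 158, 143 and 90.7 CPM in untreated and 144, 374 and 225 CPM in treated mice. H2-Ab1, its beta partner, was at 120, 121 and 74.2 CPM and at 122, 303 and 199 CPM. The groups overlapped for H2-Aa, whereas for H2-Ab1 they were separated by a margin of about 1 CPM. The log2 FC was 0.93 (SE 0.32) for H2-Aa, 1.00 (SE 0.30) for H2-Ab1 and 0.86 (SE 0.27) for H2-Eb1, with adjusted p of 0.0958, 0.0714 and 0.0804 by edgeR.

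Among the loading genes, H2-DMa had 10.7, 11.3 and 6.74 CPM in untreated and 12.6, 26.6 and 18.8 CPM in treated B6 mice, with no overlap. Its log2 FC was 1.02 (interval 0.39 to 1.65), and its adjusted p of 0.0549 (edgeR's quasi-likelihood test) was the lowest of the members. H2-DMb1 had a log2 FC of 1.00 with overlapping groups (adjusted p = 0.0968, edgeR). H2-DMb1 and H2-DMb2 are near-identical copies whose reads may not be told apart, so the split of counts between them is uncertain.

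Ciita, the regulator, had the smallest difference. It was at 36.9, 22.7 and 12.8 CPM in untreated and 24.7, 41.2 and 39.3 CPM in treated B6 mice, and untreated replicate 1 was above treated replicate 1. The log2 FC was 0.55 (interval -0.21 to 1.30, adjusted p = 0.30, edgeR).

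Of the 7 members, 0 passed the threshold with edgeR's quasi-likelihood test, where 0.0475% of all 12643 genes did, 1 (H2-DMa) passed with DESeq2, where 3.49% of all genes did, and 1 (H2-DMa) with edgeR's exact test, where 3.64% did. At an unadjusted p under 0.05, 6 of 7 were higher, against 14.7% of all genes, and 2 of 7 had groups that did not overlap, against 17.2% of all genes. The members vary together over the libraries (lowest pairwise r 0.84), so counts out of 7, here and below, are not counts of independent genes. The median log2 FC of the members was 0.97 and that of all genes 0.01. Without replicate 2 of the treated mice the median was 0.58 and 4 of 7 had an unadjusted p under 0.05 (12.9% of all genes), without replicate 1 it was 1.25 with 6 of 7 (16.4%), and without replicate 3 of set 1 it was 0.78 with 3 of 7 (10.3%). With log2 Xist as a covariate the median was 0.77 and 1 of 7 had an unadjusted p under 0.05 (9.93% of all genes), and after correction for GC content, on which the treated B6 libraries stood apart, the median was 0.83 and the lowest adjusted p 0.147. Set 2 as the untreated mice gave a median of 1.18, with 7 of 7 at an unadjusted p under 0.05 (17.4% of all genes). The adjusted p of the members were then 0.0235 to 0.0443, and 0.0107 to 0.109 with both sets (edgeR's quasi-likelihood test). The B cell markers as a covariate gave a median of 1.02 with 7 of 7 (13.8%) and adjusted p of 0.0434 to 0.0837 (edgeR). No member passed the threshold in these fits.

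The same question was asked in Irf1-/- mice. All 7 members had higher means at D26, by 1.21-fold to 1.39-fold, and the 3 treated mice lay close together. Cd74 was at 194, 243 and 219 CPM in untreated and 310, 312 and 254 CPM in treated Irf1-/- mice. H2-Aa was at 93.9, 125 and 110 CPM and at 157, 167 and 131 CPM. For both genes every treated mouse was above every untreated one. The log2 FC was 0.42 (interval 0.18 to 0.66, adjusted p = 0.0821, edgeR) for Cd74 and 0.47 (interval 0.20 to 0.74, adjusted p = 0.0801, edgeR) for H2-Aa.

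H2-Eb1 rested on 82.3, 113 and 97.4 CPM against 132, 130 and 116 CPM, and H2-DMa on 8.44, 9.52 and 8.21 CPM against 11.2, 12.5 and 10.8 CPM, again without overlap. Their log2 FC were 0.37 (SE 0.11) and 0.40 (SE 0.12). H2-Ab1 (log2 FC 0.30), H2-DMb1 (0.28) and Ciita (0.33) had overlapping groups. Ciita was at 20.7, 23.4 and 24.0 CPM in untreated and 33.0, 30.6 and 21.7 CPM in treated Irf1-/- mice, so replicate 3 of the treated mice stayed within the untreated range.

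None of the 7 passed the threshold by edgeR's quasi-likelihood test, DESeq2 or edgeR's exact test (0 in each), where 0.252% of all 12692 genes passed the first. In all, 5 of 7 had an unadjusted p under 0.05 in the upward direction, against 10.1% of all genes, and 4 of 7 had no overlap, against 12.5%. The median log2 FC was 0.37 and that of all genes 0.01. By DESeq2 and by the exact test 6 of 7 were higher at an unadjusted p under 0.05, against 9.27% and 9.94% of all genes. The lowest adjusted p of a member was 0.00562 with DESeq2 (H2-Aa) and 0.00858 with the exact test, short of the threshold in size only. With the B cell markers as a covariate, taken from a list of 8 genes, the median was 0.22 and 0 of 7 had an unadjusted p under 0.05, where 6.84% of all genes were higher at that level. In the fit of all 15 libraries the median was 0.37 and again 0 of 7 had an unadjusted p under 0.05 (8.38% of all genes), the lowest adjusted p of a member being 0.482.

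Whether the 2 responses differed was tested directly. All 7 log2 differences (response of Irf1-/- minus response of B6) were negative, from -0.21 for Ciita to -0.72 for H2-DMb1, and all 7 intervals included 0. H2-Ab1 had the smallest p, with a difference of -0.69 (interval -1.49 to 0.10, adjusted p = 0.358, edgeR's quasi-likelihood test). Cd74 had -0.55 (interval -1.38 to 0.28, adjusted p = 0.495, edgeR). None passed the threshold with edgeR's quasi-likelihood test or DESeq2 (0 of 7 in each) and 0 had an unadjusted p under 0.05, where 0.016% and 16.9% of all 12483 genes did with the first. The median was -0.55, against 0.01 for all genes. It was -0.20 without replicate 2 of treated B6 mice and -0.36 without replicate 3 of set 1, with 0 of 7 at an unadjusted p under 0.05 in both. It was -0.84 without replicate 1 of treated B6 mice, where 6 of 7 were lower at that level (8.03% of all genes), -0.87 with set 2 as the untreated B6 mice, where 3 of 7 were (5.95%), and -0.71 with the B cell markers as a covariate, where 4 of 7 were (7.07%). The adjusted p of the members stayed at 0.116 or more under each of these, and the intervals of the main test reached beyond -1 in every member.

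**Figure D3:**
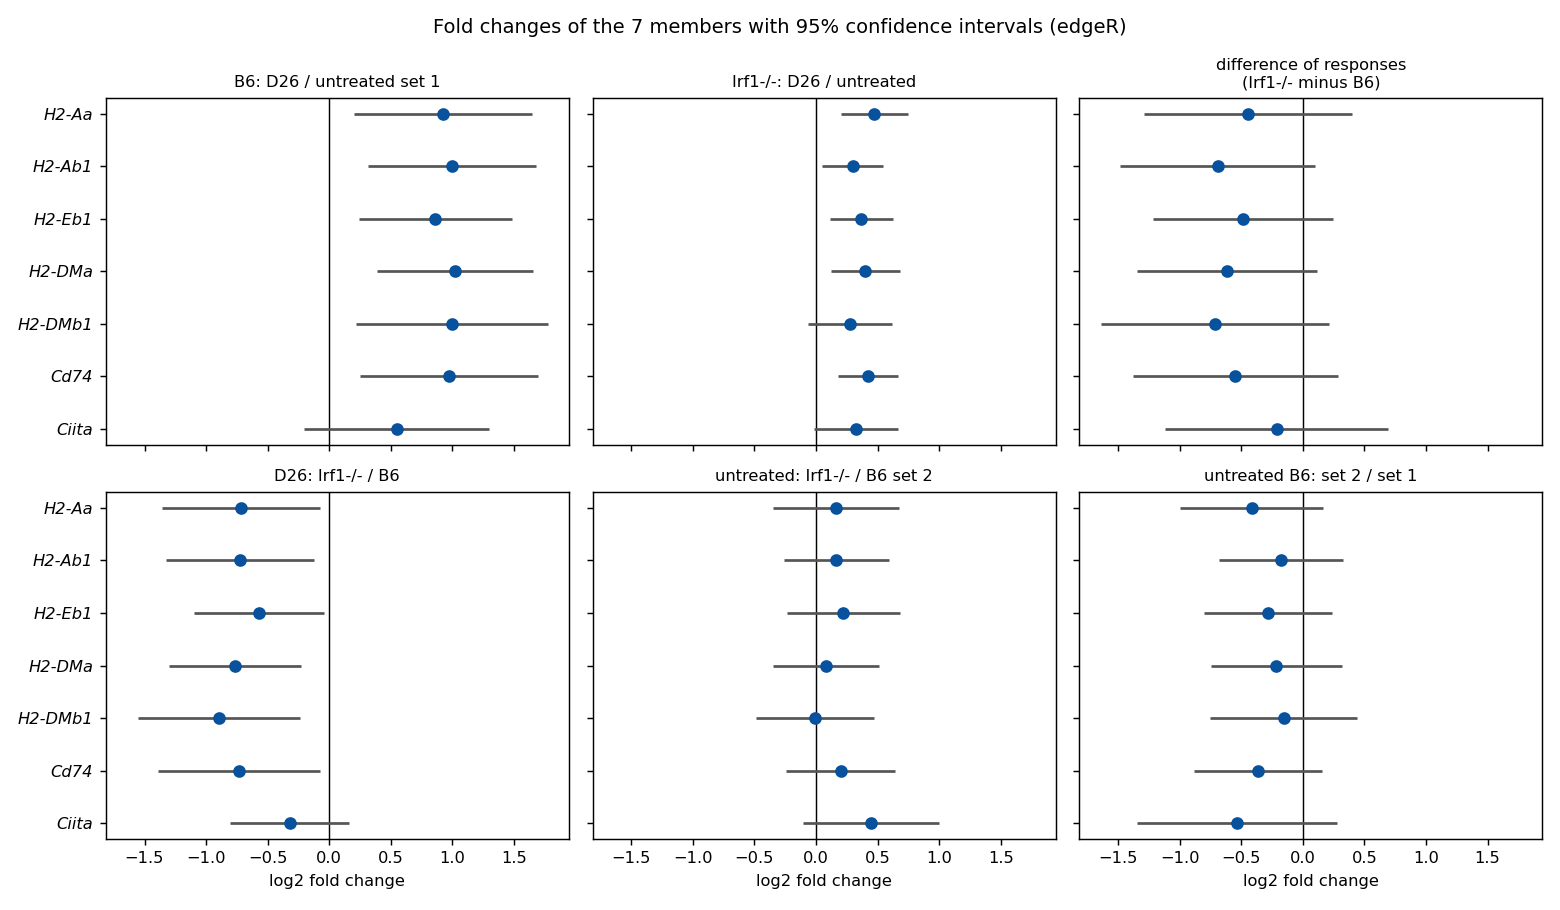
Fitted log2 fold change (x axis) of the 7 members (rows) in the 6 comparisons (panels), as points with 95% confidence intervals from edgeR's quasi-likelihood fit. In treated against untreated B6 mice 6 intervals lie above 0, in treated Irf1-/- against treated B6 mice 6 lie below 0, and in the difference of responses all 7 include 0.

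Treated Irf1-/- colons were also set against treated B6 colons. Each of the 5 groups enters more than 1 of the 6 comparisons, so these are not independent of each other, and the high treated B6 mice count in this one as they did in the first. All 7 members had lower means in Irf1-/- mice. Cd74 was at 310, 312 and 254 CPM in Irf1-/- and 266, 716 and 456 CPM in B6 mice, a log2 FC of -0.73 (interval -1.39 to -0.07, adjusted p = 0.192, edgeR's quasi-likelihood test). B6 replicate 1 lay among the Irf1-/- mice in Cd74, so the groups overlapped.

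H2-DMb1 had the largest difference, with 19.7, 19.5 and 15.5 CPM in Irf1-/- and 18.9, 49.7 and 32.2 CPM in B6 mice (log2 FC -0.90, SE 0.29, adjusted p = 0.130, edgeR). H2-DMa, its partner, was at 11.2, 12.5 and 10.8 CPM and at 12.6, 26.6 and 18.8 CPM (log2 FC -0.77, SE 0.24, adjusted p = 0.117, edgeR). It was the one member without overlap, and the nearest libraries were almost level, at 12.5 CPM (Irf1-/-) and 12.6 CPM (B6). The chain genes had log2 FC of -0.72 (H2-Aa), -0.72 (H2-Ab1) and -0.57 (H2-Eb1), and Ciita -0.32 (interval -0.80 to 0.16).

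None of the members passed the threshold by edgeR's quasi-likelihood test, DESeq2 or the exact test (0 of 7 in each), where 0.385% of all 12483 genes passed the first. At an unadjusted p under 0.05, 6 of 7 were lower, against 10.6% of all genes, and 1 of 7 had no overlap in the downward direction, against 14.5%. Their median log2 FC was -0.72, beside -0.01 for all genes. It was -0.32 without replicate 2 of treated B6 mice, with 1 of 7 lower at an unadjusted p under 0.05 (10.7% of all genes), and -0.99 without replicate 1, with 7 of 7 (8.17%), while leaving out any other library gave 2 or 3 of 7. With the GC correction the median was -0.59 with 3 of 7 (7.14%), with the Xist covariate -0.66 with 3 of 7 (11%), and with the B cell markers as a covariate -1.13 with 7 of 7 (4.31%), the adjusted p of the last being 0.451 to 0.581 (edgeR). The summed B cell markers barely overlapped here, at 66.5 to 95.3 CPM in B6 and 95.1 to 125 CPM in Irf1-/- mice. That fit can thus hardly separate the covariate from genotype.

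At steady state, Irf1-/- colons were compared with untreated B6 set 2. All 7 intervals included 0. Cd74 was at 194, 243 and 219 CPM in Irf1-/- and 164, 266 and 141 CPM in B6 mice, and the Irf1-/- values lay within the B6 range. The log2 FC of Cd74 was 0.20 (interval -0.24 to 0.64, adjusted p = 0.821, edgeR's quasi-likelihood test). H2-Aa and H2-Ab1 had log2 FC of 0.16 and 0.17, and H2-DMb1 had -0.01 (interval -0.49 to 0.47). Ciita had the largest value, at 20.7, 23.4 and 24.0 CPM against 15, 24.7 and 10.2 CPM (log2 FC 0.45, interval -0.11 to 1.00, adjusted p = 0.610, edgeR).

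The counts were 0 of 7 past the threshold by each of edgeR's quasi-likelihood test, DESeq2 and the exact test, and 0 at an unadjusted p under 0.05, where 0.405% and 10.4% of all 12588 genes did so with the first. The groups separated in 0 of 7, while they did so upward in 7.86% and downward in 7.57% of all genes. The median was 0.17 on the log2 scale and 0.00 over all genes. The sign rested on the choice of control mice: with set 1 in place of set 2 all 7 log2 FC were negative, from -0.02 for H2-Ab1 to -0.26 for H2-Aa. With the Xist covariate the median was 0.34, with 3 of 7 higher at an unadjusted p under 0.05 (5.7% of all genes). With the B cell markers as a covariate it was -0.32, with 3 of 7 lower (3.87%). The lowest adjusted p of a member was 0.169 with Xist and 0.439 with the B cell markers (edgeR). The summed B cell markers were at 30.3 to 82.5 CPM in set 2 and 80.9 to 103 CPM in Irf1-/- mice. With so little overlap the fit can hardly separate that covariate from genotype. Without replicate 2 of set 2 the median was 0.52, 5 of 7 were higher at an unadjusted p under 0.05 (5.34% of all genes) and Ciita had a log2 FC of 0.85 (adjusted p = 0.0378, edgeR), and without its replicate 3 the median was -0.01.

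The sets of untreated B6 mice gave a measure of how far the members vary without genotype or treatment. All 7 means were lower in set 2, with log2 FC from -0.16 (H2-DMb1) to -0.54 (Ciita) and overlapping groups. The adjusted p were between 0.454 and 0.812 (edgeR's quasi-likelihood test). Of the 7, 0 passed the threshold with that test, DESeq2 or the exact test, where 0.0644% of all 12417 genes passed the first. At an unadjusted p under 0.05 there were 0 of 7, against 17.2% of all genes, and 0 of 7 had separated groups, against 10.5% upward and 10.9% downward. Without replicate 2 of set 2 the median was -0.59 with 5 of 7 lower at an unadjusted p under 0.05 (6.28% of all genes), and without replicate 3 of set 1 it was -0.48 with 3 of 7 (8.50%). Without replicate 3 of set 2 the median was -0.09, and without replicates 1 or 2 of set 1 it was -0.13 and -0.17, beside -0.28 in the main test. Within set 1, Ciita went from 12.8 to 36.9 CPM, and within set 2 from 10.2 to 24.7 CPM. Both ranges were wider than the difference between the means of treated B6 mice (35.1 CPM) and set 1 (24.1 CPM).

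The members changed together over the libraries, and Cd74, H2-Eb1 and H2-Ab1 kept nearly fixed proportions to each other. Every pair correlated across the 15 libraries with r between 0.84 and 1.00 (Pearson on log2 CPM, 21 pairs, given as a description), and without Ciita the lowest was 0.95. Each gene was also compared with the mean of the other 6, where Cd74 had r = 0.99 and Ciita 0.88. The count of Cd74 was 2.02 to 2.40 times that of H2-Ab1 in every library, and that of H2-Eb1 0.83 to 1.02 times. For H2-DMa and H2-DMb1 the ratio ran from 0.46 to 0.70. The ratio to Ciita varied more widely, and the count of Cd74 was 7.78 times that of Ciita in replicate 1 of set 1 and 17.4 times in replicate 2 of treated B6 mice.

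The ratio of H2-Aa to H2-Ab1, the 2 chains of the same molecule, was singled out after its values had been seen. It was 0.97 to 1.12 in untreated B6 set 2 and 1.05 to 1.06 in untreated Irf1-/- mice, and 1.13 to 1.32 in the other 9 libraries, without overlap. Both groups with the low ratio share a count table, while the same untreated Irf1-/- counts also stand in the table of the treated Irf1-/- mice. Cd74 to H2-Ab1 had a like split, with 2.02 to 2.17 in these 6 libraries and 2.18 to 2.40 in the other 9. No test was made, since the ratios were chosen for this pattern.

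Other genes of the class II pathway were taken from a list of 14, of which 9 could be tested in every comparison and 10 in treated against untreated Irf1-/- mice. None passed the threshold in any of the 6 comparisons, and their median log2 FC was 0.21 in treated against untreated B6 mice, where that of the members was 0.97. H2-DMb2, the second beta chain of H2-DM, had a log2 FC of 0.55 in that comparison (adjusted p = 0.439, edgeR) and -0.14 between treated genotypes. The count of H2-DMb2 was 0.71 to 0.84 times that of H2-DMb1 in the 6 Irf1-/- libraries and 0.37 to 0.52 times in treated B6 mice. In the 6 untreated B6 libraries the ratio ran from 0.34 to 0.79 and thus covered both. How reads were split between these near-identical copies was not checked.

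H2-Ob, the beta chain of the H2-DM inhibitor H2-O, which is made mainly by B cells, had another order of groups. It was at 19.0, 9.95 and 4.39 CPM in set 1 and 7.38, 10.3 and 12.3 CPM in treated B6 mice (log2 FC -0.14, adjusted p = 0.847, edgeR). In treated Irf1-/- mice it was at 14.9, 15.3 and 11.7 CPM, with a log2 FC of 0.46 against treated B6 mice (adjusted p = 0.226, edgeR), opposite in sign to the members.

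Of the genes that process antigen and the invariant chain, Ctss (cathepsin S) was lower in every Irf1-/- library than in every B6 library of both genotype comparisons. Its log2 FC was -0.41 untreated (adjusted p = 0.038, edgeR) and -0.54 treated (adjusted p = 0.0305, edgeR), short of the threshold in both size and p. Lgmn, the asparaginyl endopeptidase of lysosomes, had a log2 FC of 0.43 in B6 and 0.57 in Irf1-/- mice on treatment, without overlap in either (adjusted p = 0.054 and 0.0213, edgeR). Ifi30, the interferon-inducible thiol reductase that unfolds antigens, had 0.18 and 0.03.

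The list of regulators held 18 genes, 16 of them tested, and none passed the threshold in the 6 comparisons. For Irf1 itself the log2 FC of treated against untreated B6 mice was 0.45 (adjusted p = 0.0449, edgeR), again short of it. Between treated genotypes Irf1 had -0.93 (adjusted p = 0.0117, edgeR). Nlrc5, the counterpart of Ciita for class I genes, had log2 FC of 0.90 in B6 and 0.64 in Irf1-/- mice on treatment, and its highest library was also replicate 2 of treated B6 mice, with 33.4 CPM. Rfx5, the DNA-binding subunit of RFX, had log2 FC of -0.03 and 0.08. Usf1, an E box factor, was lower in all treated Irf1-/- than in all treated B6 libraries (log2 FC -0.61, adjusted p = 0.0147, edgeR), also short of the threshold.

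**Figure D4:**
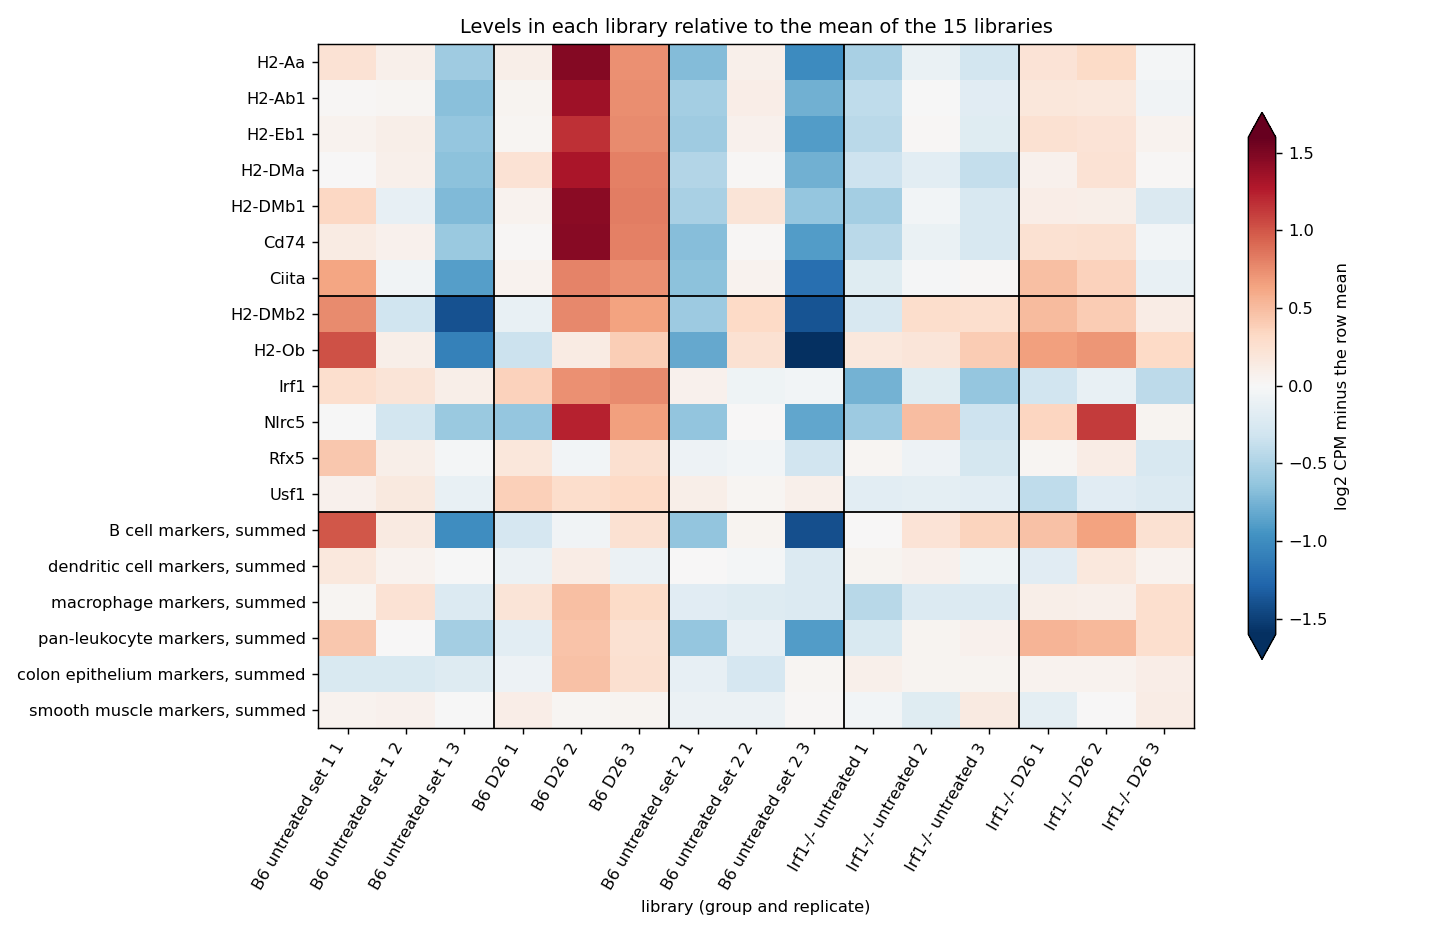
Log2 CPM of the 7 members, of named pathway genes and of summed marker lists (rows) in the 15 libraries (columns, by group and replicate), each minus its row mean, on a colour scale from blue (lower) to red (higher). The members change together, being highest in treated B6 replicate 2 and low in replicate 3 of both untreated B6 sets, and the summed B cell markers are also low in those 2 untreated libraries but not high in treated B6 replicate 2.

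Markers of the cells that carry class II were read in the same libraries. Of 8 B cell markers 7 could be tested, and their summed level was 40.3 to 159 CPM in set 1, 30.3 to 82.5 CPM in set 2, 80.9 to 103 CPM in untreated Irf1-/-, 66.5 to 95.3 CPM in treated B6 and 95.1 to 125 CPM in treated Irf1-/- mice. The summed level of the 7 members was 442 to 751, 366 to 709, 501 to 649, 701 to 1762 and 663 to 804 CPM in the same order. In the untreated B6 mice the library with the fewest B cell transcripts in each set was also that with the lowest sum of the members. Replicate 2 of treated B6 mice, with the most class II transcripts of all, had 77.2 CPM of B cell markers, which is fewer than in replicates 1 and 2 of set 1. In treated against untreated B6 mice 6 of the 7 B cell markers had a negative log2 FC, with a median of -0.25, a lowest value of -0.68 for Ms4a1 (CD20) and 0.07 for Cd79a, part of the B cell receptor. In untreated Irf1-/- against set 2 all 7 were positive, with a median of 1.14, and between treated genotypes all 7 were positive with a median of 0.36.

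All 8 macrophage markers were tested, and their sum was 281 to 382 CPM in set 1, 378 to 456 CPM in treated B6, 241 to 281 CPM in untreated Irf1-/- and 346 to 395 CPM in treated Irf1-/- mice, with 280 to 288 CPM in set 2. Of the 8, 7 had a positive log2 FC on treatment in each genotype, with medians of 0.38 in B6 and 0.51 in Irf1-/- mice. Between treated genotypes all 8 were negative, from -0.29 to -0.02, with a median of -0.22. Csf1r, the receptor that macrophages depend on, had log2 FC of 0.36 in B6 and 0.56 in Irf1-/- mice on treatment (adjusted p = 0.0543 and 0.0254, edgeR). Of 8 dendritic cell markers only 2 could be tested, Xcr1 and Itgax (CD11c), and their sum was 47.2 to 62.2 CPM over all libraries. Most of it was Xcr1, with group means of 34.2 to 41.4 CPM, against 12.9 to 21.9 CPM for Itgax. Flt3 and Zbtb46 were among the markers not analysed here. Itgax had log2 FC of -0.04 in B6 and 0.61 in Irf1-/- mice on treatment (adjusted p = 0.917 and 0.0777, edgeR). Xcr1, a chemokine receptor of dendritic cells, had -0.12 and -0.27 (adjusted p = 0.338 and 0.278, edgeR), so the 2 markers differed in sign in Irf1-/- mice. T cells were represented by 1 of 6 markers, Cd4, at 3.97 to 16.4 CPM over all libraries.

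The 6 pan-leukocyte markers summed to 148 to 291 CPM in set 1, 116 to 197 CPM in set 2, 182 to 226 CPM in untreated Irf1-/-, 192 to 296 CPM in treated B6 and 260 to 314 CPM in treated Irf1-/- mice. In treated Irf1-/- against treated B6 mice their median log2 FC was 0.14, from -0.06 for Laptm5 to 0.60 for Ptprc (CD45, adjusted p = 0.133, edgeR), and that of the members was -0.72. The 8 colon epithelium markers summed to 9167 to 9392 CPM in set 1, 9038 to 11134 CPM in set 2, 11213 to 11475 CPM in untreated Irf1-/-, 10306 to 15070 CPM in treated B6 and 11252 to 11737 CPM in treated Irf1-/- mice. Within treated B6 mice the order of that sum was the order of the members' sum, replicate 2 being highest and replicate 1 lowest. The same order held for the macrophage sum (378, 456 and 404 CPM in replicates 1 to 3) and the pan-leukocyte sum (192, 296 and 255 CPM). It also held for the dendritic cell sum and Cd4, but not for the B cell sum (66.5, 77.2 and 95.3 CPM) or the smooth muscle sum. The spread of the epithelium sum was mostly that of Muc2, the goblet cell mucin, at 2668, 7000 and 4821 CPM. Epcam was at 1337, 1491 and 1443 CPM in the same mice. Between treated genotypes the 8 epithelium markers had a median log2 FC of -0.21, with 1 of 8 positive. The 4 smooth muscle markers summed to 5426 to 6872 CPM over all libraries. Apart from the fits with the B cell covariate, no fit took these markers into account, and the part of these cells in the members' differences was not tested.

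**Figure D5:**
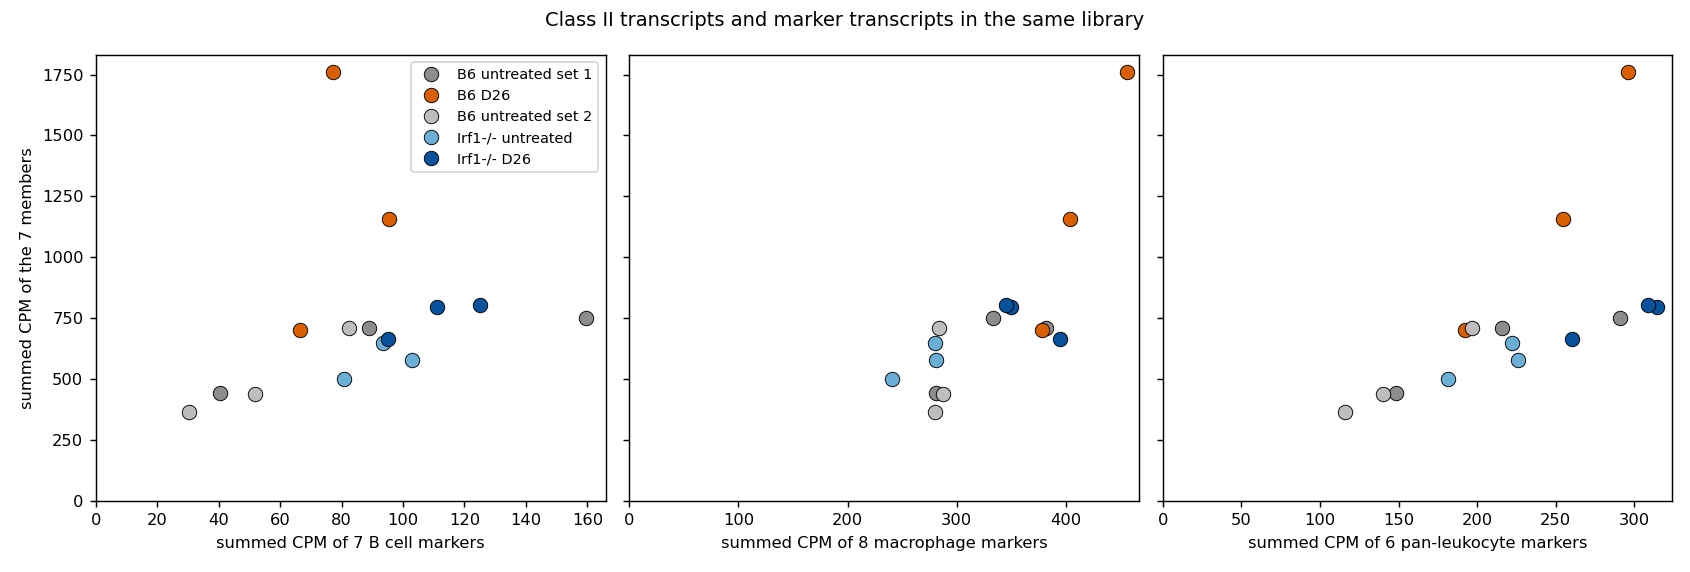
Summed CPM of the 7 members (y axis) against the summed CPM of 7 B cell, 8 macrophage and 6 pan-leukocyte markers (x axes), 1 point per library, coloured by group. Treated B6 replicate 2 has 1762 CPM of the members at 77.2 CPM of B cell markers, and the 3 treated Irf1-/- libraries have 663 to 804 CPM of the members at 260 to 314 CPM of pan-leukocyte markers.

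Genes with the pattern most like that of the members were found by correlating every gene present in all 3 tables (12370) with the mean of the 7 members over the 15 libraries. Among the 5 nearest genes outside the list were Fermt3 (r = 0.94), Pld4 (0.93), Cxcl16 (0.93) and Irf5 (0.92). Ciita itself had r = 0.91. After group means had been removed, the values of these 4 were 0.90, 0.93, 0.87 and 0.84. The 6 pan-leukocyte markers then had 0.81 (Laptm5) to 0.95 (Cd53), where before they had 0.47 (Cd53) to 0.84 (Laptm5). With group means removed the 7 B cell markers had 0.57 (Fcer2a) to 0.82 (Cd79b). The 8 macrophage markers had -0.37 (Mertk) to 0.66 (C1qa), and the dendritic cell markers 0.86 (Itgax) and -0.12 (Xcr1). Fermt3 is an integrin activator, Pld4 an endolysosomal nuclease, Cxcl16 a chemokine and Irf5 a member of the IRF family. H2-DMb2 had r = 0.83, Irf1 0.58 and H2-Ob 0.63. The libraries share their depth and tissue, and the values are a description.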

How the data were processed

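RNA-seq was done on 15 distal colons, from stranded libraries depleted of rRNA. What the authors deposited are whole, unnormalized read counts of genes, in 3 tables from which they left out genes under 5 CPM in at least 3 libraries. Per the labels, TopHat2 2.0.9, Bowtie 1.0.0, featureCounts and edgeR were used with build mm9, and the versions of the last 2 tools and the counting options are not given in the sources used here. Columns of the authors' CPM, fold changes and p-values were not used. The untreated Irf1-/- libraries stand in 2 tables with identical counts.

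Counts were scaled by TMM and fitted with the quasi-likelihood model of edgeR 4.0.16 (R 4.3.3), with only the groups of each comparison in a fit, and p-values were adjusted over all genes tested. The threshold was the study's, namely a change of 1.5-fold or more and an adjusted p below 0.01. A prior count of 2 was used for log2 CPM. Intervals cover 95%. The test was also run on simulated counts, drawn independently for each gene and with the same dispersion in every group. That run does not cover groups of unequal spread or members that vary together. GC content and length came from GENCODE M21, which is not the build of the counts. Replicates of a group were compared by a chi-square of their counts, which was 8.65 to 42.7 per degree of freedom, so all were kept as separate samples. Members, lists and tests were chosen with earlier results of these data known. Named were the 7 members, the list genes past the threshold or otherwise up to 4 per list and comparison with the smallest p, a fixed set of pathway and marker genes, and the 5 genes most like the members' mean. Values of 2 genes that this rule names are not reported here. The cell lists also held colon epithelium and smooth muscle, with 0 genes past the threshold among 8 and 4.

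Alternatives were RLE size factors, DESeq2 1.42.0, edgeR's exact test, a filter of 10 CPM, a fit of all 15 libraries, a block on the replicate number, a lowess correction on GC content (span 0.3), both together, each library left out, an adjusted p under 0.05 and other B6 control sets. Covariates of log2 Xist and of the summed B cell markers were added after seeing the data. Figures were drawn with Python 3.11.15 and matplotlib 3.10.9.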

Additional observations from a re-analysis of the deposited data

How the results depend on the processing

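No member passed the threshold in any comparison under any alternative, with the exception of 1 member, H2-DMa, in treated against untreated B6 mice with DESeq2 (log2 FC 1.02, adjusted p = 0.0028) and with edgeR's exact test (adjusted p = 0.0072). Leaving out each library gave 0 members in every comparison. Of 790 member values under the alternatives, 759 kept their sign and side of the threshold. The exact test could not be run for the difference between responses.

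The sign changed in 29 of these values, none of them past the threshold. For untreated Irf1-/- against B6 mice, with set 1 as controls the values were -0.26 (H2-Aa), -0.019 (H2-Ab1), -0.066 (H2-Eb1), -0.14 (H2-DMa), -0.17 (Cd74) and -0.092 (Ciita), and with both sets -0.063 (H2-Aa) and -0.035 (H2-DMa). With the B cell markers as a covariate they were -0.42 (H2-Aa), -0.32 (H2-Ab1), -0.30 (H2-Eb1), -0.34 (H2-DMa), -0.29 (Cd74) and -0.21 (Ciita), and with Xist H2-DMb1 was 0.11. Leaving out 1 library gave -0.049 to 0.54 for H2-Aa, -0.0072 to 0.46 for H2-Ab1, -0.091 to 0.33 for H2-DMa and -0.16 to 0.30 for H2-DMb1. Between the B6 sets the B cell covariate gave 0.13 (H2-Ab1), 0.028 (H2-Eb1), 0.082 (H2-DMa), 0.25 (H2-DMb1) and 0.080 (Ciita), and leaving out 1 library gave -0.46 to 0.13 for H2-DMb1. For the difference between responses, leaving out 1 library gave -0.66 to 0.082 for Ciita. The cause of these changes was not tested.

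Same-numbered libraries deviated together with r from -0.22 to 0.25, over 0.1 in 3 of 15 pairs, so the numbers were not taken as pairs. In the fit with a replicate block, H2-DMb1 in untreated mice had 0.020, and 0.016 together with the GC correction, and the members' median was 0.90 in treated against untreated B6 mice, 0.38 in Irf1-/- mice, -0.50 for the difference and -0.63 between treated genotypes. This block moved the genes called between treated genotypes from 48 to 7 and between the B6 sets from 8 to 13.

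The number of genes called among all genes depended on the tool. In treated against untreated B6 mice it was 6 in the main test, 441 with DESeq2, 460 with the exact test, 297 with all 15 libraries in 1 fit and 0 with the GC correction or with either covariate. With 1 library left out it was 0 to 152. In the other comparisons the number in the main test, the range with 1 library left out and the range over the other alternatives were 51, 26 to 64 and 24 to 137 for untreated Irf1-/- against B6 mice, 32, 0 to 61 and 0 to 249 for treatment in Irf1-/- mice, 2, 1 to 9 and 0 to 75 for the difference of responses, 48, 17 to 48 and 7 to 270 between treated genotypes, and 8, 3 to 53 and 5 to 161 between the B6 sets. With 3 mice a group and treated B6 mice that differ as they do, the intervals of the members span more than 1 log2 unit there, so that a member without a call may still have changed.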
